A study of Mus musculus with 6 samples.

Results

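The genes described here are 9 genes of the transforming growth factor beta (TGF-beta) pathway in mouse chondrocytes, the cells that make cartilage matrix. They include the ligands Tgfb1, Tgfb2 and Tgfb3 and the receptors Tgfbr1, Tgfbr2 and Tgfbr3. The others are Ltbp1 and Ltbp2, of the latent TGF-beta binding protein family, and the feedback inhibitor Smad7. All 9 genes were chosen by symbol from a table of 35976 genes. All were found and passed the filter on low counts, which left 13761 genes for testing. Polyadenylated RNA was sequenced from chondrocytes of the hind limb articular cartilage of embryos at day 18.5, of mixed C57BL/6 x 129S4/SvJae background, after 16 population doublings as a monolayer on tissue culture plastic. Cells of both groups carried an H3.3 histone transgene and received doxycycline at 2 µg/ml to switch it on. In the H3K9M group (libraries numbered 1, 3 and 5) the transgene had methionine in place of lysine 9, and the labels describe H3K9 methylation as suppressed. In the H3WT group (libraries 1, 2 and 4) it was wild-type H3.3. The promoter of the transgene and the number of embryos behind a library are not given in the sources used here, so p-values measure only the spread between these libraries, which may be technical.

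TGF-beta ligands are secreted as latent complexes in which the growth factor is held by its propeptide and, through it, by latent TGF-beta binding proteins (LTBPs) that anchor it in the matrix. Once released, a ligand binds the type II receptor, encoded by Tgfbr2, which then recruits and phosphorylates the type I receptor, encoded by Tgfbr1. Betaglycan, encoded by Tgfbr3, is a co-receptor that presents ligand, TGF-beta2 in particular, to the type II receptor. The active type I receptor phosphorylates Smad2 and Smad3, which enter the nucleus with Smad4. In cartilage, TGF-beta is known to promote matrix synthesis and to restrain hypertrophic maturation, and it is also known to drive fibroblast-like and contractile gene programmes in cultured mesenchymal cells.

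The libraries held 15113675 to 19606082 counts, and the members between 337 counts (Tgfbr1 in H3WT replicate 4) and 42891 counts (Ltbp2 in H3K9M replicate 3). The cartilage collagen gene Col2a1, a chondrocyte marker, had at least 4913 CPM in every library. CPM are counts scaled to a common library size, with TMM factors for composition. Another chondrocyte marker, Matn1, was as low as 2.88 CPM (H3K9M replicate 1). The fibroblast marker Col1a1 was above Col2a1 in H3K9M replicates 1 and 5 and in H3WT replicates 1 and 4, and below it in the others. On the first principal component (35.5% of the variance) H3K9M replicate 3 (51) and H3WT replicate 2 (49.1) lay at one end, H3WT replicates 1 (-56.2) and 4 (-51.5) at the other, and H3K9M replicates 1 (-2.82) and 5 (10.4) between them. The second component (28.8%) separated the groups, at 19.05 to 39.8 for H3K9M and -71.5 to -11.4 for H3WT, with H3WT replicate 2 at the lowest value. Results are also given without H3K9M replicate 3 and H3WT replicate 2, which shared an end of the first component across the groups.

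No member passed edgeR's test, and 1, Tgfbr3, passed the DESeq2 Wald test. Over all 13761 genes, 0 genes (0%) had an adjusted p under 0.05 with edgeR's quasi-likelihood test and 0 with limma-voom, while 1677 (12.2%) had an unadjusted p under 0.05 with edgeR and the DESeq2 Wald test called 365 of 15329 genes (2.38%). Of the 9 members 2 had an unadjusted p under 0.05 with edgeR, Tgfbr2 and Tgfbr3, both lower in H3K9M, against 5.77% of all genes lower and 6.42% higher at that p. In 3 members, Tgfbr2, Tgfbr3 and Ltbp1, every H3K9M library lay below every H3WT library, an arrangement found in 8.68% of all genes (19.4% did not overlap in either direction). No member had every H3K9M library above every H3WT library, against 10.7% of all genes. The median log2 fold change of the members (H3K9M over H3WT throughout) was -0.26, with 6 lower and 3 higher, against a median of -0.0029 over all genes tested. Without H3K9M replicate 3 and H3WT replicate 2, an alternative chosen after seeing the data, 302 genes (2.19%, of which 1.32% of all genes lower) passed with edgeR, among them 1 member, Tgfbr3. In that fit 3 members, Tgfbr2, Tgfbr3 and Ltbp1, had an unadjusted p under 0.05, against 18.4% of genes.

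**Figure D1:**
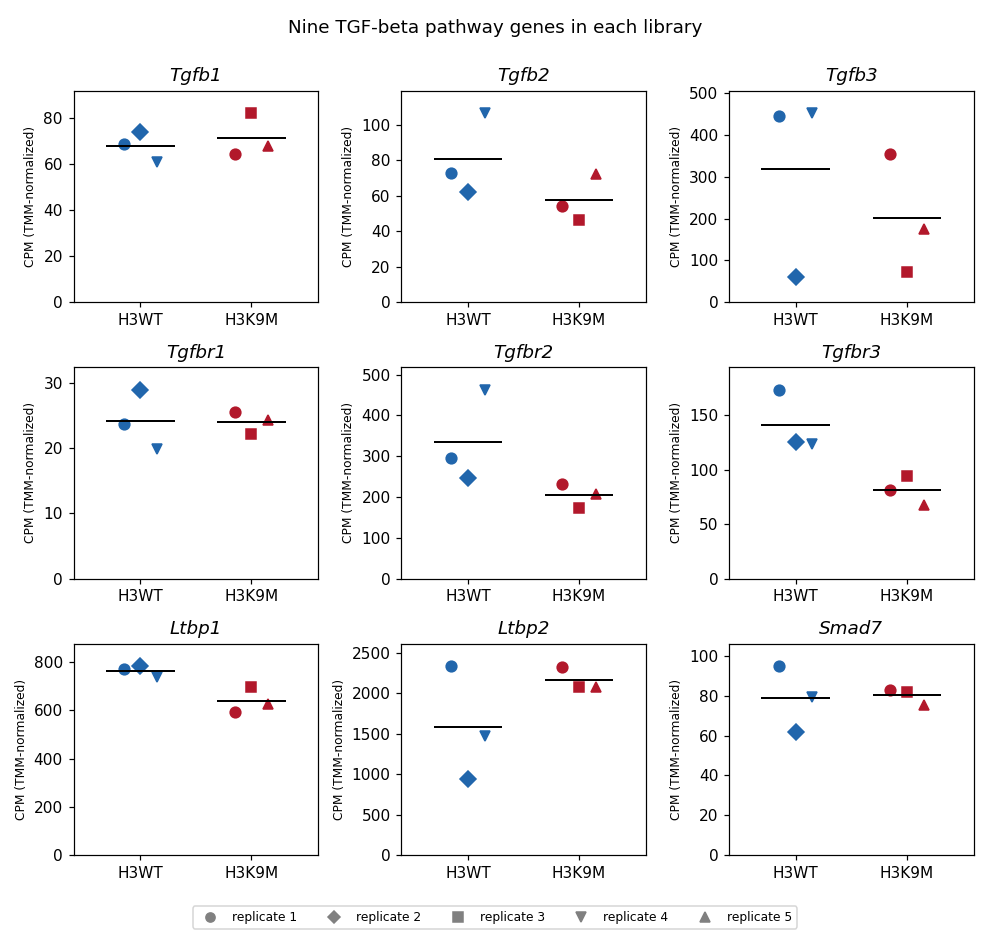
Each panel shows the TMM-normalized CPM of 1 gene from 0 upward, with 1 symbol per library (blue, H3WT; red, H3K9M; the symbol gives the replicate number) and a line at the group mean. The red symbols of Tgfbr2, Tgfbr3 and Ltbp1 lie below all blue symbols, and Tgfb3 runs from 60.9 to 452.1 CPM within the H3WT group.

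Among the ligands, Tgfb3 varied most between libraries and none separated the groups. Tgfb3 (chr12:86056743-86079041, GRCm38) had 354.8, 71.4 and 176.0 CPM in replicates 1, 3 and 5 of H3K9M and 444.3, 60.9 and 452.1 CPM in replicates 1, 2 and 4 of H3WT. The low values were thus those of H3WT replicate 2 and H3K9M replicate 3, 1 in each group, and the groups overlapped. The means were 200.7 ± 143.3 and 319.1 ± 223.6 CPM (SD, n = 3 each). The estimated log2 fold change was -0.67 (standard error 0.85, edgeR adjusted p 0.809), and its 95% confidence interval reached from 15% to 264% of the H3WT level, so that neither a fall nor a rise of 2-fold was beyond the interval. Its biological coefficient of variation, the spread between replicates beyond counting error as estimated by edgeR, was 0.689, higher than in 90% of the genes tested. It was 0.16 for Tgfb1 and 0.227 for Tgfb2. Without both H3WT replicate 2 and H3K9M replicate 3 the log2 fold change of Tgfb3 was -0.74 with an SE of 0.313 (adjusted p 0.285, edgeR). It was -1.37 without H3K9M replicate 1, -1.15 without H3WT replicate 2 and -0.25 without H3K9M replicate 3.

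Smooth muscle and myofibroblast markers were low in the same libraries as Tgfb3. The summed level of Acta2, Myh11, Cnn1 and Tagln, which encode contractile proteins, was 3754, 666 and 2013 CPM in replicates 1, 3 and 5 of H3K9M and 4199, 975 and 4178 CPM in replicates 1, 2 and 4 of H3WT. Its lowest levels were those of H3K9M replicate 3 and H3WT replicate 2, as for Tgfb3, and the groups overlapped from 666 to 3754 against 975 to 4199 CPM. All 4 markers passed the filter, and none was at 0. The summed level of 6 fibroblast markers, most of it from the collagen genes Col1a1, Col1a2 and Col3a1, was also lowest in these libraries, at 11702 CPM in H3K9M replicate 3 and 9758 CPM in H3WT replicate 2, against 22949 to 34418 CPM in the other 4. Thy1 was lowest in the same libraries, whereas the fibroblast markers Pdgfra (236.3 and 242.8 CPM) and Dcn (177.3 and 142.8 CPM) were highest there. The part of either group of markers in the Tgfb3 values was not tested. In bulk RNA, fewer cells of a type and less RNA per cell cannot be told apart.

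**Figure D2:**
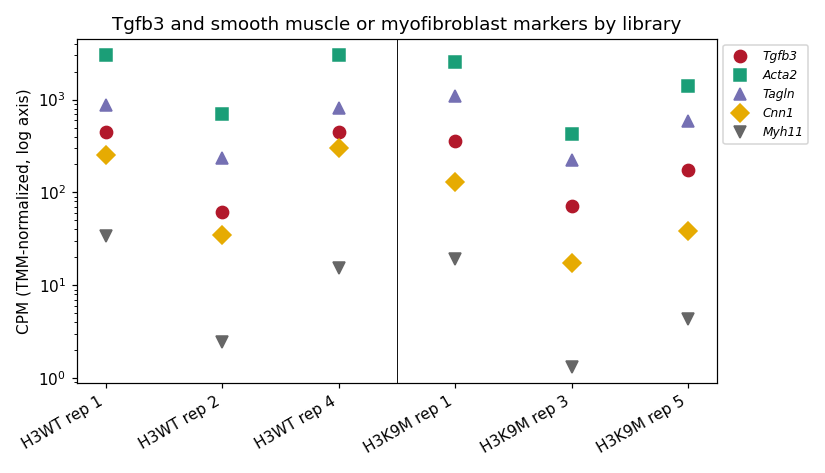
TMM-normalized CPM on a log axis of Tgfb3 (red circles) and of 4 smooth muscle or myofibroblast markers in each library, with the H3WT libraries left of the line and the H3K9M libraries right of it. Tgfb3 and the 4 markers each have their lowest value of a group in H3WT replicate 2 or H3K9M replicate 3.

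The other ligands differed less. Tgfb2 had 54.3, 46.2 and 72.2 CPM in replicates 1, 3 and 5 of H3K9M and 72.6, 62.3 and 106.5 CPM in replicates 1, 2 and 4 of H3WT. The highest value was that of H3WT replicate 4 and the groups overlapped. Tgfb2 thus had a log2 fold change of -0.48 (standard error 0.239, edgeR adjusted p 0.456), with an interval from 48.8% to 105% of the H3WT level. Tgfb1, the ligand most studied in cultured cells, had 64.4, 82.1 and 68.0 CPM in H3K9M and 68.7, 74.0 and 60.7 CPM in H3WT, in the same order of replicates. These values overlapped closely, and H3K9M replicate 3 was the highest. For Tgfb1 the estimate was a log2 fold change of 0.08 (standard error 0.142, edgeR adjusted p 0.877), with an interval from 84.1% to 132%, and its sign turned to -0.02 without H3K9M replicate 3.

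The makeup of the ligand transcripts followed Tgfb3. Per base of the longest GENCODE M21 transcript, Tgfb3 made up 74.6%, 34.0% and 56.2% of the ligand reads in replicates 1, 3 and 5 of H3K9M and 76.3%, 30.5% and 75.1% in replicates 1, 2 and 4 of H3WT. In H3K9M replicate 3 and H3WT replicate 2, Tgfb1 was instead the most abundant ligand transcript, at 51.4% and 48.8%, against 13.2% to 28.5% in the other 4 libraries. This order turned with the length used: per kilobase of summed exons, Tgfb3 was above Tgfb1 in these libraries too (21.1 against 16.3 and 18.0 against 14.7 CPM per kilobase). The share of Tgfb2 was 7.56% to 20.7%. The difference between the groups in the mean share was -5.67 percentage points for Tgfb3, 6.75 for Tgfb1 and -1.08 for Tgfb2, each with an adjusted p of 0.9 (exact two-sided permutation test over the 6 libraries, adjusted over 6 shares). With 3 libraries against 3 the smallest p this test can give is 0.1.

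**Figure D3:**
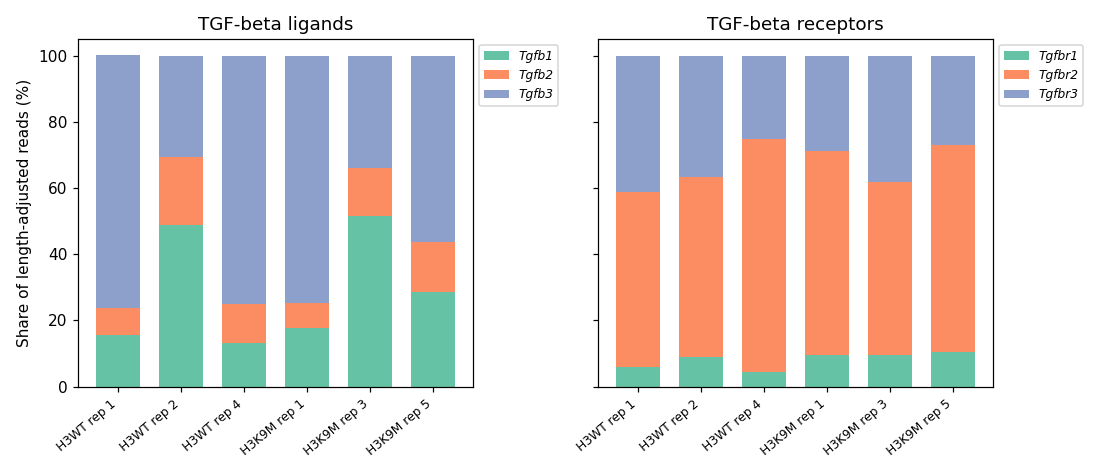
Stacked bars give the percent of length-adjusted reads taken by each of the 3 ligand genes (left) and each of the 3 receptor genes (right) in each library. Tgfb3 takes 30.5% and 34.0% of the ligand reads in H3WT replicate 2 and H3K9M replicate 3 and 56.2% or more in the others, while the green Tgfbr1 segment is between 9.49% and 10.3% in the H3K9M libraries and between 4.26% and 8.98% in the H3WT libraries.

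The largest log2 fold changes among the members were those of 2 receptors, and neither passed the main test. Tgfbr3 (chr5:107106567-107289629, GRCm38), which encodes the co-receptor betaglycan, had 80.9, 94.6 and 67.5 CPM in replicates 1, 3 and 5 of H3K9M and 173.4, 125.5 and 123.8 CPM in replicates 1, 2 and 4 of H3WT. All 3 H3K9M libraries lay below all 3 H3WT libraries, and the gap between the nearest libraries was 94.6 to 123.8 CPM. The means were 81.0 ± 13.6 and 140.9 ± 28.1 CPM (SD, n = 3 each). The fitted log2 fold change of Tgfbr3 was -0.80 (SE 0.182), or 57.5% of the H3WT level, with an interval not adjusted for the number of genes of 43.0% to 76.8%. The difference did not pass over all genes (unadjusted p 0.00222, adjusted p 0.206, edgeR). It passed with the DESeq2 Wald test (adjusted p 0.0152), which called 1.2% of genes lower, and with edgeR without H3K9M replicate 3 and H3WT replicate 2 (log2 fold change -0.99, adjusted p 0.0403). Over the fits that left out 1 library its log2 fold change ran from -0.92 to -0.62, with no adjusted p under 0.05 by edgeR. An edgeR fit with a length and GC offset put it at -0.69 (adjusted p 0.345). Tgfbr3 shares exon sequence with the annotated gene Gm43422 on its own strand. Whether reads from that sequence were counted for either gene or left out is not given in the sources used here.

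Tgfbr2 (chr9:116087695-116175363, GRCm38), the type II receptor that binds ligand, had 231.6, 172.8 and 207.3 CPM in replicates 1, 3 and 5 of H3K9M and 295.3, 246.2 and 462.8 CPM in replicates 1, 2 and 4 of H3WT. The groups did not overlap, but the gap between the nearest libraries was narrow, 231.6 against 246.2 CPM, and H3WT replicate 4 stood well above the rest. Tgfbr2 had a log2 fold change of -0.72 (SE 0.24), or 60.9% of the H3WT level, with an unadjusted interval of 41.5% to 89.5% (unadjusted p 0.0179, adjusted p 0.308, edgeR). Without H3WT replicate 4 it was -0.41 (unadjusted edgeR p 0.0515), and without H3K9M replicate 3 it was -0.60 (unadjusted edgeR p 0.0601). Without H3WT replicate 2 it was -0.88. The unadjusted edgeR p was under 0.05 in this and the other fits that left out 1 library. With H3WT replicate 2 and H3K9M replicate 3 both left out it was -0.78 (edgeR adjusted p 0.101). The fit with a length and GC offset put it at -0.51 (edgeR adjusted p 0.533).

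Tgfbr1, the kinase that phosphorylates Smad2 and Smad3, had 25.5, 22.3 and 24.4 CPM in replicates 1, 3 and 5 of H3K9M and 23.7, 29.0 and 19.9 CPM in replicates 1, 2 and 4 of H3WT. The H3K9M libraries lay within the range of the H3WT libraries. For Tgfbr1 the estimate was -0.01 on the log2 scale (standard error 0.19, edgeR adjusted p 0.992) with an interval of 73.4% to 135%, and its sign depended on the scaling and on single libraries. As a share of the receptor reads per base of transcript, Tgfbr1 took 9.57%, 9.49% and 10.3% in H3K9M and 5.96%, 8.98% and 4.26% in H3WT. The share was higher in all 3 H3K9M libraries, by 3.4 percentage points in the mean (exact two-sided permutation p 0.1, the smallest the design allows, adjusted p 0.6). The nearest libraries were at 9.49% and 8.98%. This share also depends on the levels of Tgfbr2 and Tgfbr3, which had log2 fold changes of -0.72 and -0.80. The shares of Tgfbr2 (52.4% to 70.6%) and Tgfbr3 (25.1% to 41.2%) overlapped between the groups.

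Markers of other cell types were read beside these receptor values. Of 6 macrophage and blood markers only Cd68 and Csf1r passed the filter, and their list summed to 6.16 to 15.2 CPM in H3K9M and 3.37 to 4.32 CPM in H3WT, without overlap in the sum although each of these genes overlapped, while Ptprc, Adgre1 and Hbb-bs had 0 counts in all 6 libraries. Of 6 skeletal muscle markers 4 passed the filter, all 4 with a higher mean in H3K9M. Their list summed to 153.2, 221.3 and 21.0 CPM in replicates 1, 3 and 5 of H3K9M and to 31.7, 11.1 and 25.7 CPM in replicates 1, 2 and 4 of H3WT, so the sums overlapped. Acta1 overlapped too, but Myod1, Myh3 and Des, which mark muscle cells, were each higher in all 3 H3K9M libraries. Myod1, the factor that commits cells to muscle, had 19.5, 57.0 and 4.29 CPM in H3K9M against 0, 1.04 and 0 CPM in H3WT (edgeR adjusted p 0.244). All 8 chondrocyte markers were on average lower in H3K9M, as were 6934 of the 13761 genes tested, and each overlapped between the groups. Their list summed to 7287 to 11379 CPM in H3K9M and 7184 to 18759 CPM in H3WT. The lowest sum was that of H3WT replicate 1 and the highest that of H3WT replicate 2. The sums of osteoblast markers (46.3 to 119.6 CPM) and adipocyte markers (15.4 to 27.2 CPM) overlapped between the groups, though the osteoblast marker Ibsp was lower in all 3 H3K9M libraries (1.88, 3.04 and 0.867 CPM against 8.08, 5.45 and 11.96 CPM, edgeR adjusted p 0.227). The part of these cell types in the values of Tgfbr2 and Tgfbr3 was not tested.

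**Figure D4:**
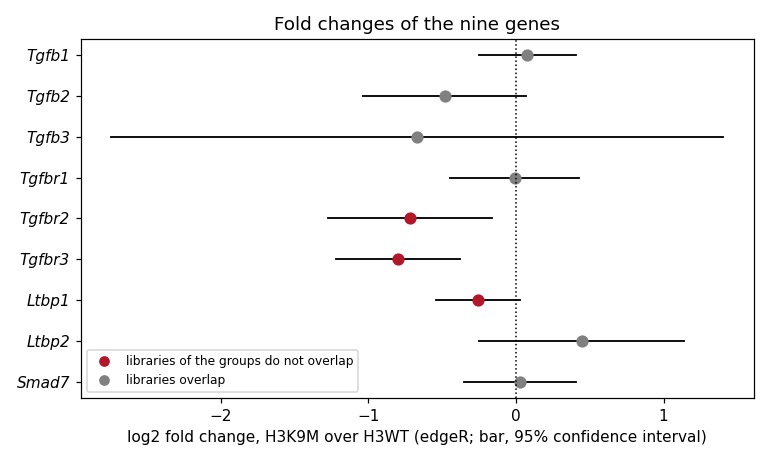
Points give the log2 fold change of each of the 9 genes, H3K9M over H3WT, from edgeR's quasi-likelihood fit, and bars the 95% confidence interval, not adjusted for the number of genes. The intervals of Tgfbr2 (-1.27 to -0.16) and Tgfbr3 (-1.22 to -0.38) lie below 0, and that of Tgfb3 is the widest of the 9, from -2.74 to 1.40.

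Of the 2 LTBP genes, Ltbp1 was lower in every H3K9M library and Ltbp2 was higher on average, and neither passed the test. Ltbp1 (chr17:75005480-75392512, GRCm38), which binds the latent ligand covalently, had 593.3, 695.6 and 628.0 CPM in replicates 1, 3 and 5 of H3K9M and 770.8, 783.8 and 738.9 CPM in replicates 1, 2 and 4 of H3WT. The groups did not overlap, and the difference was small beside that of the receptors. On the log2 scale the difference was -0.26 (standard error 0.124, edgeR adjusted p 0.445), or 83.6% of the H3WT level, with an interval of 68.6% to 102%. A fit with a length and GC offset put it at -0.07. A stretch of the annotated Ltbp1 transcripts is at least 90% identical over 200 bases or more to transcripts of 77 other genes, so reads from that stretch are uncertain.

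Ltbp2 (chr12:84783212-84876558, GRCm38), a matrix protein of the same family that, unlike Ltbp1, is not known to bind latent TGF-beta, had 2327, 2072 and 2076 CPM in replicates 1, 3 and 5 of H3K9M and 2335, 944.7 and 1476 CPM in replicates 1, 2 and 4 of H3WT. The H3K9M values lay close together, H3WT replicate 1 was as high as they were, and H3WT replicates 2 and 4 were lower. Ltbp2 had an estimate of 0.45 on the log2 scale (standard error 0.299, edgeR adjusted p 0.586), with an interval of 84.3% to 220%. A fit with the length and GC offset gave 0.77. Leaving out H3WT replicate 1 gave 0.83, and leaving out H3WT replicate 2 gave 0.19. Ltbp2 overlaps D030025P21Rik on the opposite strand, as Tgfb3 overlaps Gm37804 and Gm48008 and Tgfb2 overlaps Gm29491. Whether counting used strand is not given in the sources used here, so reads of these pairs may not be told apart.

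The promoter windows of Tgfbr2 and Ltbp1 are shown because these are the members without overlap between the groups that have an entry in the RefSeq promoter table (GRCm38.p6, the build that the submitters name as mm10). That table gave 250 bases before and 50 bases after a start site for 6 of the 9 members, namely Tgfb1, Tgfb2, Tgfbr1, Tgfbr2, Ltbp1 and Ltbp2. Capitals mark matches, on either strand, to the cyclic AMP response element TGACGTCA or to the CCAAT box. The windows were also searched for the palindromic Smad element GTCTAGAC, the Smad box CAGACA, the AP-1 site TGAGTCA and the GC box GGGCGG, which had no match in either. The first lies at chr9:116175314-116175613 on the minus strand and the second, the more upstream of the Ltbp1 start sites in the table, at chr17:75005279-75005578 on the plus strand.
Tgfbr2: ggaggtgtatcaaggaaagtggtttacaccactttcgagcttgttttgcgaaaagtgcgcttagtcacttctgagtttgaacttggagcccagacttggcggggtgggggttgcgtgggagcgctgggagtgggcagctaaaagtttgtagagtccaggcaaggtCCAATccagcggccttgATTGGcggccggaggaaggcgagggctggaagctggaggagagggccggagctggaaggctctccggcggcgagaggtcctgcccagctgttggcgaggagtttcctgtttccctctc
Ltbp1: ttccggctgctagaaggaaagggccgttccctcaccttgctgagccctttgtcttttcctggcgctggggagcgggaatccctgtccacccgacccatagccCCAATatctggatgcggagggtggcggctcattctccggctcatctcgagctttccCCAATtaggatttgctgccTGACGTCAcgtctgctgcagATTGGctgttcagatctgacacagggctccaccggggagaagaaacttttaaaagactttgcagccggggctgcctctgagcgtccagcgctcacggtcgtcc
The Tgfbr2 window held 2 CCAAT boxes, at positions -85 and -68 from the start site, in opposite orientations. The Ltbp1 window held 3, at -148, -92 and -53, and a cyclic AMP response element at -73. Over the promoter windows of tested genes a CCAAT box was found in 37.7% and a cyclic AMP response element in 2.97%. The palindromic Smad element was in 0 of the members' windows, against 0.238% of the windows of tested genes, and the AP-1 site also in 0, against 3.82%. The Smad box was found in the Tgfb2 window (1 match) and in the downstream windows of Tgfbr1 (1) and Ltbp1 (2), against 16% of windows. The GC box was found in the windows of Tgfb1 (6 matches), Tgfbr1 (2) and Ltbp2 (2), against 62.2% of windows. These matches describe letters in the reference and are no evidence of binding.

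Smad7, the inhibitory Smad that TGF-beta itself induces and that blocks the type I receptor, overlapped between the groups. It had 83.1, 82.1 and 75.6 CPM in replicates 1, 3 and 5 of H3K9M and 94.9, 61.8 and 79.35 CPM in replicates 1, 2 and 4 of H3WT. The H3K9M libraries lay inside the H3WT range, whose ends were H3WT replicates 1 and 2. The Smad7 estimate was 0.03 on the log2 scale (standard error 0.165, edgeR adjusted p 0.963), with an interval of 78.4% to 133% of the H3WT level. It was -0.11 without H3WT replicate 2.

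Levels were compared between members per kilobase of the longest annotated transcript (CPM per kilobase). Ltbp2 was the most abundant, with a mean of 277 CPM per kilobase over the 6 libraries, followed by Ltbp1 (105), Tgfb3 (76.8), Tgfbr2 (33.3), Tgfb1 (27.1), Smad7 (18.6), Tgfbr3 (18.2), Tgfb2 (13.5) and Tgfbr1 (4.19). Ltbp2 over Ltbp1, Tgfb1 over Smad7 and Tgfb2 over Tgfbr1 were the neighbours in this order whose ranges did not overlap, and each held in 6 of 6 libraries. The other 5 neighbouring pairs overlapped, and Ltbp1 was above Tgfb3 in 3 of 6 libraries. Divided by the summed exon length of the gene instead, Tgfb1 stood in the seventh place and not the fifth, at 13.8 CPM per kilobase, and Tgfb3 came before Ltbp1. The type I receptor was the least abundant member by either length.

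Genes with the most similar pattern over the 6 libraries were found for the 5 members whose own values varied by at least 0.3 (root mean square of centred log2 CPM). Likeness is the root mean square difference between centred log2 CPM values over 6 libraries, among genes with at least 10 CPM. Tgfb3 was nearest to Slc1a6 (0.128) and to Mfap5 (0.197), which encodes a microfibril protein. Slc1a6 had 11.7 and 15.6 CPM in H3WT replicate 2 and H3K9M replicate 3 and 34.0 to 111.0 CPM elsewhere. Tgfbr3 was nearest to Gprc5b (0.137) and Ssbp4 (0.147), Tgfbr2 to Zswim6 (0.108) and Sik1 (0.114), Tgfb2 to Gstm1 (0.0927) and Brwd3 (0.101), and Ltbp2 to Map1b (0.0774) and Arhgap10 (0.136). These likenesses are a description of 6 libraries.

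Other genes of the pathway were taken from 4 lists, and 0 of them passed an adjusted p of 0.05 over all genes with edgeR. Of 12 genes for latency and activation 11 were tested, with 7 lower and 4 higher in H3K9M and a median log2 fold change of -0.21. Unadjusted p under 0.05 was reached by 3 (5.77% of all genes were lower at that p), all lower, namely Lrrc32, Furin and, with overlap and named after its values were seen, Thbs1. Lrrc32 encodes GARP, a cell surface protein that holds latent TGF-beta. It had 193.1, 251.5 and 116.6 CPM in replicates 1, 3 and 5 of H3K9M and 594.7, 361.1 and 432.2 CPM in replicates 1, 2 and 4 of H3WT (a log2 ratio of -1.31 with a standard error of 0.302, edgeR adjusted p 0.216). Every H3K9M library was below every H3WT library. Furin, the protease that cleaves the ligand precursors, had a log2 fold change of -0.37 (standard error 0.134, edgeR adjusted p 0.337), also without overlap. Its nearest libraries were at 175.7 and 184.1 CPM, and the fit with a length and GC offset put it at -0.17 (edgeR adjusted p 0.813). Over all genes 8.68% were lower without overlap. The smallest p-values among the higher genes were those of the integrin subunits Itgav and Itgb6, which take part in activation. Itgav had a log2 fold change of 0.13 (unadjusted edgeR p 0.399) and Itgb6 of 0.87 (unadjusted edgeR p 0.477). Both overlapped between the groups. Itgb6, with 0 CPM in H3WT replicate 1, had a log2 fold change of 0.29 without that library and of 2.09 without H3WT replicate 2.

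Of the 12 receptor partners and regulators, all tested, 7 were lower and 5 higher, with a median of -0.14, and 2 had an unadjusted p under 0.05, both lower and both without overlap (5.77% of all genes were lower at that p, and 8.68% lower without overlap). They are the co-receptor endoglin (Eng) and the type I receptor ALK1 (Acvrl1), known partners of each other in endothelial cells. Eng had 53.9, 51.6 and 50.5 CPM in replicates 1, 3 and 5 of H3K9M and 77.5, 88.7 and 74.1 CPM in replicates 1, 2 and 4 of H3WT (a log2 ratio of -0.62 with a standard error of 0.123, edgeR adjusted p 0.18). Acvrl1 was low throughout, with 2.41, 6.28 and 2.60 CPM in H3K9M against 16.0, 6.80 and 16.2 CPM in H3WT (a log2 ratio of -1.78 with a standard error of 0.496, edgeR adjusted p 0.249). Endoglin is, like betaglycan, a co-receptor, and in both genes all H3K9M libraries lay below all H3WT libraries. The endothelial markers Pecam1, Cdh5, Kdr and Tek summed to at most 0.825 CPM in any library, with Cdh5 at 0 in all. Tgfbrap1 and Zfyve9, which help bring Smads and receptors together, had the smallest p among the higher genes, and both overlapped. Their log2 fold changes were 0.19 (unadjusted edgeR p 0.243) and 0.20 (unadjusted edgeR p 0.262).

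Of the 10 Smads and nuclear partners 9 were tested, with 7 lower, 2 higher and a median of -0.03. An unadjusted edgeR p under 0.05 was reached by 2 higher genes (6.42% of all genes) and 1 lower gene (5.77% of all genes). Smad2 and Smad3, which carry the signal, had log2 fold changes of -0.01 and -0.03, each overlapping between the groups. Skil, a corepressor that TGF-beta induces and that restrains Smads, had 71.95, 79.5 and 85.8 CPM in replicates 1, 3 and 5 of H3K9M and 57.2, 52.5 and 45.5 CPM in replicates 1, 2 and 4 of H3WT (a log2 ratio of 0.61 with a standard error of 0.138, edgeR adjusted p 0.206). Tgif1, another corepressor, was higher by 0.56 (standard error 0.221, edgeR adjusted p 0.38). Both had all H3K9M libraries above all H3WT libraries, as had 10.7% of all genes, though for Tgif1 the nearest were 45.7 and 45.5 CPM. Ski, the close relative of Skil, was lower on average, at -0.47 (standard error 0.198, edgeR adjusted p 0.393), as was the inhibitory Smad6, at -0.59 (standard error 0.292, edgeR adjusted p 0.462), both with overlap. Smad4, named after its values were seen, was lower without overlap, as were 8.68% of all genes, by a small margin (log2 fold change -0.21, edgeR adjusted p 0.466).

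The 20 genes known to be induced by TGF-beta, all tested, were split in direction, with 9 higher, 11 lower and a median of -0.05. Of these, 6 were higher without overlap (10.7% of all genes were) and 2 were lower without overlap (8.68% of all genes). Pmepa1, which encodes a membrane protein that dampens Smad signalling, had 322.0, 356.0 and 263.5 CPM in replicates 1, 3 and 5 of H3K9M and 179.4, 183.2 and 129.8 CPM in replicates 1, 2 and 4 of H3WT (a log2 ratio of 0.93 with a standard error of 0.177, edgeR adjusted p 0.17). Bhlhe40, a transcriptional repressor, had 46.4, 73.0 and 59.5 CPM in H3K9M against 33.7, 34.5 and 33.8 CPM in H3WT (a log2 ratio of 0.81 with a standard error of 0.179, edgeR adjusted p 0.206). The other 4 genes higher without overlap, named after their values were seen, were Nox4 (1.04), Timp1 (0.54), Junb (0.49) and Fn1 (0.44, fibronectin). Snai1 and Snai2, transcription factors of mesenchymal transition, were lower without overlap, at -0.84 and -0.91 (adjusted p 0.147 and 0.206, edgeR), values already known from earlier results of these data. Ctgf, a matricellular protein gene often read as a reporter of TGF-beta activity, was at -0.45 (standard error 0.221, edgeR adjusted p 0.452), with overlap. The list shares Acta2, Tagln and Col1a1 with the marker lists above. Of the genes named from the 4 lists, Lrrc32, Eng, Acvrl1, Skil, Pmepa1, Bhlhe40, Snai1 and Snai2 had a DESeq2 adjusted p under 0.05. These values ran from 4.69e-05 for Snai1 and 0.000562 for Lrrc32 to 0.0477 for Skil. Over all genes 2.38% passed that test. The named genes were picked for a small edgeR p on these same counts, so setting them against that share is no test of the lists. The same holds for the fits that follow. With edgeR and without H3K9M replicate 3 and H3WT replicate 2, a fit in which 2.19% of genes passed, Lrrc32 (-1.72), Acvrl1 (-2.67), Pmepa1 (0.93) and Snai1 (-0.80) passed, at adjusted p of 0.0369, 0.0136, 0.0456 and 0.0263. In Lrrc32 (251.5 and 361.1 CPM) and Acvrl1 (6.28 and 6.80 CPM), but not in Pmepa1 or Snai1, the libraries left out held the nearest values of the groups. With every gene of at least 1 count kept, Pmepa1 (edgeR adjusted p 0.0225) and Snai1 (0.019) passed, and Snai1 also passed without H3WT replicate 2 (0.043).

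**Figure D5:**
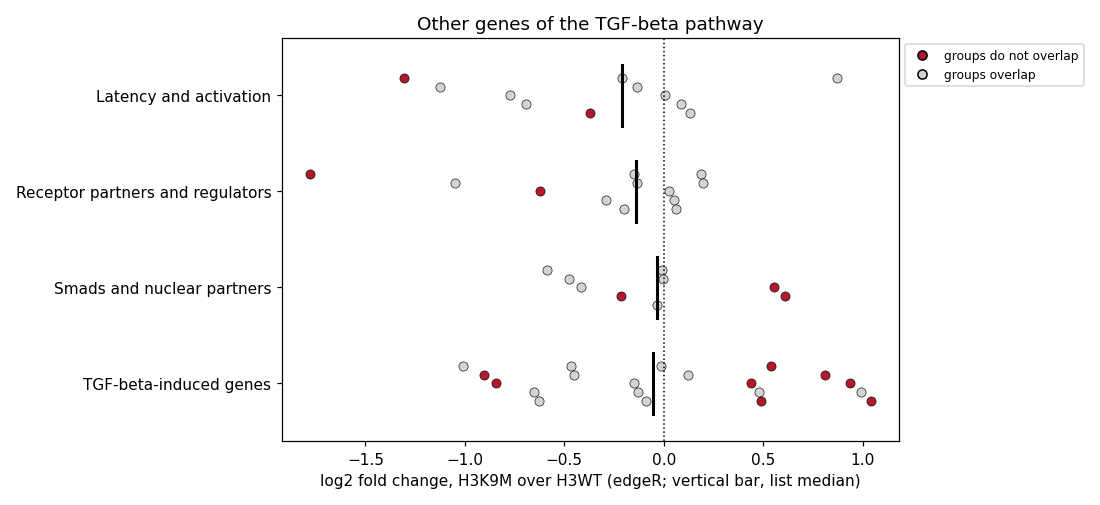
Each point is the log2 fold change, H3K9M over H3WT, of 1 tested gene of a list, red where the libraries of the groups do not overlap, and the vertical bar is the list's median. In the 2 upper lists all red points lie below 0, and in the list of induced genes 6 red points lie above 0 and 2 below.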

How the data were processed

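The authors deposited a table of raw counts with gene symbols as rows and libraries as columns. The authors used HISAT2, featureCounts, DESeq2 and mm10, per the submitters' processing notes, and the versions, annotation and strand setting are not given in the sources used here. Each column matched 1 sample title.

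Tests used edgeR 4.0.16 under R 4.3.3 (filterByExpr, TMM, robust quasi-likelihood fit on genotype over 6 libraries, Benjamini-Hochberg adjustment over 13761 genes, threshold 0.05). The SE is the log2 fold change divided by the square root of F. Shares used exact permutation tests. Lengths came from GENCODE M21 and promoters from RefSeq GRCm38.p6. The fits were also run on simulated counts, with a pass criterion only for the median error of edgeR's log2 fold changes.

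Alternatives were DESeq2 1.42.0, limma-voom (limma 3.58.1), other scalings and filters, a loess offset on length and GC content, leaving out libraries and other lengths. List genes were named by a rule, the 2 with the smallest p in each direction, and other names are said to be chosen later or given as background. The 9 members and the lists were chosen with earlier results of these data known.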

Additional observations from a re-analysis of the deposited data

How the results depend on the processing

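The signs of Tgfb2, Tgfb3, Tgfbr2, Tgfbr3, Ltbp1 and Ltbp2 held under every alternative run. The length and GC offset gave smaller log2 fold changes for Tgfbr3 (-0.69) and Tgfbr2 (-0.51) than the main fit (-0.80 and -0.72). Tgfbr3 passed with DESeq2 (log2 fold change -0.80, adjusted p 0.0152) and without H3K9M replicate 3 and H3WT replicate 2 together (-0.99, adjusted p 0.0403), a choice made after seeing the data, as was the use of summed exon lengths. The cause was not tested. Without those 2 libraries Tgfbr1 was at 0.21 and Smad7 at -0.12, both reversed, the differences in share of Tgfb2 and Tgfbr2 turned to 1.44 and 0.438 percentage points, 302 genes passed and 2542 had an unadjusted p under 0.05. With library size alone Tgfbr1 was at 0.039, where the median of all genes was 0.053. Genes past the threshold numbered 365 with DESeq2 and 36 when genes with at least 1 count were all kept. List medians moved with the length and GC offset to 0.045 (latency and activation), -0.083 (receptor partners) and 0.111 (Smads), and with library size alone to -0.078 (receptor partners). When 1 library was left out, genes past the threshold ran from 0 to 91 (2 without H3K9M replicate 3, 91 without H3WT replicate 2). In the same fits the log2 fold change ran from -0.024 to 0.155 for Tgfb1, from -0.13 to 0.154 for Tgfbr1 and from -0.108 to 0.186 for Smad7. The list median ran from -0.375 to -0.044 for latency and activation, from -0.153 to -0.048 for receptor partners and from -0.202 to 0.278 for induced genes. The difference in share ran from -2.67 to 18.2 percentage points for Tgfb1, from -3.72 to 2.49 for Tgfb2, from -20.7 to 4.8 for Tgfb3, from -3.54 to 5.36 for Tgfbr2 and from -7.7 to 0.356 for Tgfbr3. Where a group is left with 2 libraries, the spread is shared over both groups. The offset covered 12976 genes, those with a length. No paired analysis was possible because the groups share only 1 replicate number.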
